A study of Rattus norvegicus with 12 samples.

Results

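The dose slope of each liver transcript, the straight-line change of its array signal with the daily dose of A-998679, was measured over the livers of 12 rats. A-998679 is an experimental compound that the study describes as an activator of the aryl hydrocarbon receptor (AhR). The slope was fitted for every probe set (a group of short probes for 1 transcript on the array) that had a value in all 12 livers, which was 20497 of the 29176 probe sets and covered 10907 of the 13643 genes named on the array. Male Sprague Dawley rats received vehicle (10 ml/kg of 0.2% HPMC, a cellulose polymer) or 30, 100 or 200 mg/kg A-998679 by oral gavage once a day for 5 days, with 3 rats in each group. All groups, vehicle included, were fasted overnight before the livers were taken. The top dose is 200 mg/kg in the sample titles but 300 mg/kg in a description field, and the slope uses 200.

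The liver clears foreign compounds in steps. Oxidases such as the cytochromes P450 and reductases first add or expose a reactive group, transferases then attach glutathione, glucuronate or sulfate, and pumps carry the product into bile or blood. AhR is a ligand-activated transcription factor that switches on Cyp1a genes and several of the conjugating enzymes. The factor Nrf2 switches on an overlapping set that handles reactive products and supplies NADPH, and the receptors CAR and PXR drive other P450, transferase and pump genes.

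Of the 20497 probe sets, 51 rose with dose (0.249%) and 37 fell (0.181%) at an adjusted p of at most 0.05 (limma, with Benjamini-Hochberg adjustment over all of them). The corresponding counts at an unadjusted p of at most 0.05 were 1127 and 1113. With each gene represented by its brightest probe set, 40 genes rose (0.367%) and 28 fell (0.257%) of 10907. Rising genes were led, by smallest p, by Akr7a3, Ephx1, Gsta3, Ugdh, Kxd1 and Cryl1. Kxd1 encodes a subunit of a complex that positions lysosomes. The others are enzymes that reduce, hydrolyse or conjugate foreign compounds or work in the uronate pathway. Falling genes were led by Slc34a2, Slc16a1, Afm, Apoa4 and Ldha, which encode a phosphate transporter, a lactate transporter, a pair of plasma proteins and a glycolytic enzyme. The median slope over all probe sets was 0.0065 log2 units per 100 mg/kg, so slopes of called genes were measured against a background close to 0.

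**Figure D1:**
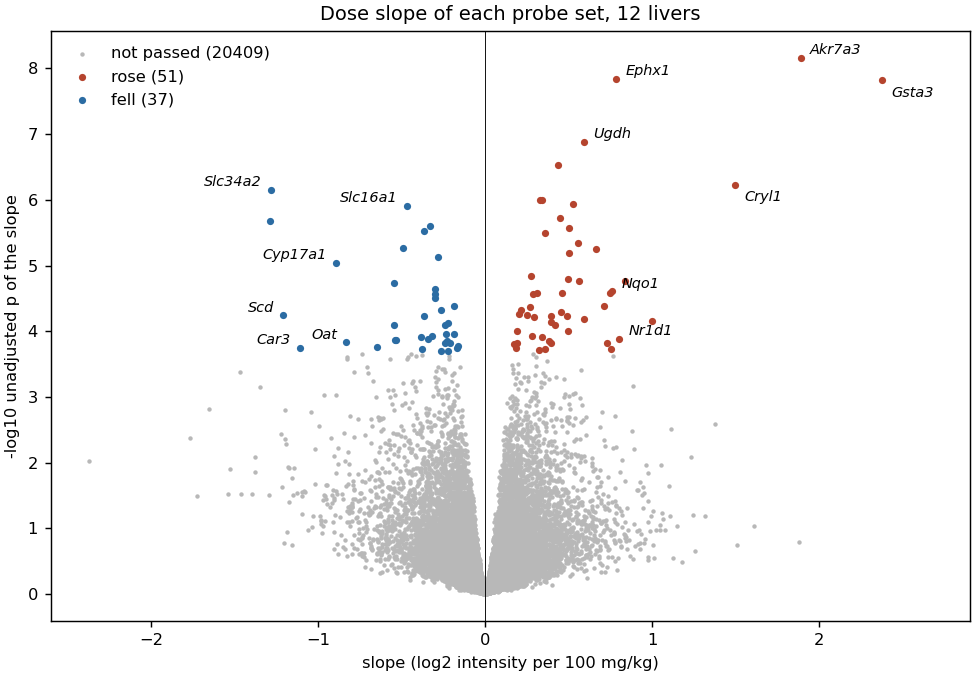
Slope of each probe set (x axis, log2 intensity per 100 mg/kg) against -log10 of its unadjusted p (y axis) over 12 livers. The 51 probe sets that rose are red, the 37 that fell are blue and the others are grey; Gsta3, Akr7a3 and Cryl1 lie farthest to the right among the calls, and Slc34a2 and Scd are among the called probe sets farthest to the left.

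Promoter sequences are shown for the 4 named rising genes and the 2 named falling genes with the smallest slope p, whether or not they hold a match, because the DNA motifs of AhR and Nrf2 have known letters. Each window is the RefSeq sequence on the GRCr8 build, from 250 bases before to 50 bases after the annotated start, read 5′ to 3′ on the gene's strand, with matches on either strand in capitals. The motifs searched were the AhR core GCGTG, which reads as CACGC on the other strand, the antioxidant response element bound by Nrf2, TGACNNNGC, and the cAMP response element TGACGTCA, whose letters read the same on both strands. A GCGTG match can share letters with an antioxidant element, as it does in Ugdh. The Akr7a3 window is chr5:156876471-156876770 (+ strand), the Gsta3 window chr9:31154739-31155038 (+) and the Ugdh window chr14:43202268-43202567 (+). The Ephx1 window is chr13:95275803-95276102 (- strand), the Slc34a2 window chr14:62143023-62143322 (-) and the Slc16a1 window chr2:194812410-194812709 (+). The first 4 genes printed rose with dose and the last 2 fell.
Akr7a3: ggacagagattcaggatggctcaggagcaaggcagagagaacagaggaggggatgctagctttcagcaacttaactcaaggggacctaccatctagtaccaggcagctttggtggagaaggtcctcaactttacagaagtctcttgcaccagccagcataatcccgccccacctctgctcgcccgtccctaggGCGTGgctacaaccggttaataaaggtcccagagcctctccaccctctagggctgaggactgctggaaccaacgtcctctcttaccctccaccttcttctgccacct
Ephx1: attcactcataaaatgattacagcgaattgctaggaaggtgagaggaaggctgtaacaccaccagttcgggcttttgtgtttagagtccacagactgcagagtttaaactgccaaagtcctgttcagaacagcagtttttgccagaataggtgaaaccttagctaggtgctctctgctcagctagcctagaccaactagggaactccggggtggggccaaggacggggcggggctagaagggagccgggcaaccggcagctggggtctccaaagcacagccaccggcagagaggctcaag
Gsta3: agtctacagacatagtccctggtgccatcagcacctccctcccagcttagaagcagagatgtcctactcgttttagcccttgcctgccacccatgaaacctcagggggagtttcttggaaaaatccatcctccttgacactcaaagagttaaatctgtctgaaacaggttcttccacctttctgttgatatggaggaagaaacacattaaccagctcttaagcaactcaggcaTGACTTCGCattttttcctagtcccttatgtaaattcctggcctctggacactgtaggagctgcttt
Ugdh: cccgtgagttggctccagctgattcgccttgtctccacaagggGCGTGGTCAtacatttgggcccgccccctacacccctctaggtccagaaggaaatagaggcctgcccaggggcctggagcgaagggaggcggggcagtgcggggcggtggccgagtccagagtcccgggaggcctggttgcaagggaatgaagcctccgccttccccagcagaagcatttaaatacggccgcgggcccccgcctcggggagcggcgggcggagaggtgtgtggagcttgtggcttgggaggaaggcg
Slc34a2: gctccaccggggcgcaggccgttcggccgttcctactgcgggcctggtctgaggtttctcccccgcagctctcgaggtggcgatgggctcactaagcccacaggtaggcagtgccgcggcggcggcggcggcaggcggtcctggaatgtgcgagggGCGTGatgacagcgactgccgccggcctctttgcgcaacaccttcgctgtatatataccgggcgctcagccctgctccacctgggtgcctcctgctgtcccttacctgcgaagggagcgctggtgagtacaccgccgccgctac
Slc16a1: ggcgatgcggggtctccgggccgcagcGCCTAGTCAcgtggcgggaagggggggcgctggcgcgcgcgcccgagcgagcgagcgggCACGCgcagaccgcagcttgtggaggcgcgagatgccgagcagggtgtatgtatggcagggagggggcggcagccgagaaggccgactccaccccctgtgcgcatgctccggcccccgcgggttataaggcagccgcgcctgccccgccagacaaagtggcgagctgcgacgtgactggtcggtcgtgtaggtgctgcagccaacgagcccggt
The Akr7a3 window holds 1 AhR core, which begins 57 bases before the start. The Gsta3 window holds no AhR core and 1 antioxidant element, TGACTTCGC, beginning 17 bases before the start. Ephx1 holds no match, Slc34a2 holds 1 AhR core, and Ugdh and Slc16a1 each hold 1 AhR core and 1 antioxidant element. The gene number matched a RefSeq promoter for 35 of 41 named genes that rose and for 25 of 32 that fell. The AhR core was present in 18 of the 35 (51.4%) and in 12 of the 25 (48%), beside 31.1% of all 27457 promoters of the same length. The antioxidant element was present in 6 of 35 (17.1%) and 5 of 25 (20%), beside 12.2% of all promoters, and the cAMP element in 0 of 35 and 2 of 25 (Ldha and Wsb1), beside 1.91%. The 27457 promoters include genes that were not tested for a slope, and the shares among tested genes alone were not measured. A match is a description of the letters, and these shares carry no test.

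Detoxifying reductases and hydrolases gave the clearest rises. Akr7a3, which in the rat reduces the dialdehyde of aflatoxin, had log2 intensities of 7.59, 7.69 and 7.87 in vehicle rats, 7.66, 8.02 and 8.65 at 30 mg/kg, 9.41, 10.74 and 9.47 at 100 mg/kg, with 12.04, 11.05 and 11.05 at 200 mg/kg. All rats at 100 and 200 mg/kg lay above all vehicle rats, while the 30 mg/kg rats overlapped them. Its slope was 1.89 log2 units per 100 mg/kg (95% interval 1.55 to 2.24, adjusted p = 0.000104), which puts the fitted level at 200 mg/kg 13.8-fold above that at 0. Ephx1, microsomal epoxide hydrolase, which opens reactive epoxides, was bright in every liver, at 11.05, 11.16 and 10.89 with vehicle, 10.84, 10.95 and 11.14 at 30 mg/kg, 11.36, 11.97 and 11.56 at 100 mg/kg, with 12.65, 12.37 and 12.49 at 200 mg/kg. The 30 mg/kg rats did not separate from vehicle, the 100 mg/kg rats were above both, and the 200 mg/kg rats were above all others, with a slope of 0.79 (0.63 to 0.94, adjusted p = 0.000104). Akr7a2, a related aldehyde reductase, rose more gently (slope 0.36, 0.25 to 0.47, adjusted p = 0.0038). Of 18 tested aldo-keto reductases and epoxide hydrolases, 3 rose and 0 fell at the adjusted threshold, beside 0.367% and 0.257% of all genes. At an unadjusted p of at most 0.05, 6 had an upward and 1 a downward slope, beside 6.79% and 5.73% of all genes.

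Glutathione transferases, which attach glutathione to electrophiles, held the steepest slope of any called gene. Gsta3, an alpha class transferase, had log2 intensities of 4.34, 3.98 and 4.41 in vehicle rats, 5.70, 5.52 and 6.36 at 30 mg/kg, 7.77, 8.53 and 7.23 at 100 mg/kg, with 9.49, 9.46 and 8.70 at 200 mg/kg. No 2 dose groups overlapped, which among the 51 rising probe sets was so for Gsta3 only. Its slope was 2.38 (1.92 to 2.84, adjusted p = 0.000104), or 27.0-fold between 0 and 200 mg/kg on the fitted line. On the log2 scale its curve flattened at the upper doses, with 32.5% of the full change at 30 mg/kg and 72.4% at 100 mg/kg. On the linear scale it did not level off, at 3.06, 12.1 and 31.5 times vehicle at 30, 100 and 200 mg/kg. The moderated F test for departure from a line gave an unadjusted p of 0.0027 and an adjusted p of 0.95. Mgst2, a microsomal transferase, had 9.03, 9.23 and 9.53 with vehicle, 9.54, 9.48 and 9.74 at 30 mg/kg, 9.96, 10.04 and 9.93 at 100 mg/kg, with 10.51, 9.99 and 10.44 at 200 mg/kg. It rose by 0.50 log2 units per 100 mg/kg (0.36 to 0.65, adjusted p = 0.0037). Gstm4, Gstm1, Gsta4 and Gstt3 also rose, with slopes of 0.45, 0.25, 0.38 and 0.73 and adjusted p-values of 0.025, 0.025, 0.041 and 0.041. In all, 6 of 20 tested transferases rose and 0 fell, beside 0.367% and 0.257% of all genes. An upward slope at an unadjusted p of at most 0.05 was held by 10, beside 6.79% of all genes. The median slope of the 20 was 0.23 log2 units per 100 mg/kg, beside 0.0080 over all genes. Between 0 and 200 mg/kg their median fitted change was 0.46 log2 units. The number of rises was 2 without vehicle rat 2 or 200 mg/kg rat 3 and 3 without vehicle rat 3 or 200 mg/kg rat 1. Gsta1, at 11.90 to 11.97 with vehicle and 12.14 to 12.31 at 200 mg/kg, did not pass (slope 0.15, adjusted p = 0.17). Related transferases have similar sequences, and whether a probe set reads more than 1 of them was not tested.

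The Gstm4, Gstm1, Gsta4 and Gstt3 calls were less firm than those of Gsta3 and Mgst2, which passed in all 12 fits that left out 1 rat. Gstm4 missed the threshold without vehicle rat 2 or 200 mg/kg rats 1 or 3 (highest adjusted p 0.10), and Gstm1 without vehicle rats 2 or 3 or 200 mg/kg rats 1 or 3 (highest 0.079). Gsta4 passed only without vehicle rat 1 or 30 mg/kg rats 1 or 2 (highest 0.13), and Gstt3 only without 100 mg/kg rats 2 or 3 or 200 mg/kg rat 1 (highest 0.12).

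Glucuronidation uses UDP-glucuronate, made from UDP-glucose by the dehydrogenase Ugdh. Ugdh had log2 intensities of 9.67, 9.74 and 9.87 with vehicle, 9.70, 10.21 and 9.96 at 30 mg/kg, 10.10, 10.27 and 10.27 at 100 mg/kg, with 11.25, 10.81 and 10.86 at 200 mg/kg. The 200 mg/kg rats were above all others, and the slope was 0.59 (0.46 to 0.73, adjusted p = 0.00067). Cryl1, which oxidises gulonate in the uronate pathway downstream of glucuronate, was dim with vehicle at 3.79, 5.28 and 4.00, and had 4.91, 4.54 and 5.52 at 30 mg/kg, 6.03, 6.12 and 6.47 at 100 mg/kg, with 8.11, 7.23 and 6.80 at 200 mg/kg. Its slope of 1.5 (1.11 to 1.88, adjusted p = 0.0020) is a 7.97-fold fitted rise over the dose range. Ugt2b1, a glucuronosyltransferase, rose with more spread (slope 0.76, 0.43 to 1.08, adjusted p = 0.046), with 100 mg/kg rats at 10.05, 10.66 and 9.34 within the range of the 30 mg/kg rats at 10.40, 9.49 and 10.40, apart from 1 below and 1 above it. Of 22 listed genes of glucuronidation and UDP-glucuronate supply, 11 had a probe set of their own and were tested. Of these, 3 rose and 0 fell, beside 0.367% and 0.257% of all genes. All 11 slopes were positive, under quantile and 75th percentile scaling as well. The positive slopes were 9 without 30 mg/kg rat 2 or 200 mg/kg rat 1 and 10 without 200 mg/kg rat 3. The Ugdh and Cryl1 calls passed in all 12 fits without 1 rat, whereas Ugt2b1 passed only without 30 mg/kg rats 1 or 3 or 100 mg/kg rat 3 (highest adjusted p 0.17). Of 16 sulfotransferases and methyltransferases 0 passed in either direction (2 upward and 2 downward at an unadjusted p of at most 0.05), beside 0.367% and 0.257% of all genes.

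Of 24 tested targets of Nrf2, 6 rose and 0 fell, and of 13 tested genes for NADPH supply 2 rose and 0 fell. The shares of all genes were 0.367% and 0.257%. The 6 Nrf2 rises include Akr7a3 and Ephx1, counted above, and both NADPH rises. Nqo1, a quinone reductase, had log2 intensities of 8.30, 7.56 and 8.49 in vehicle rats, 9.01, 8.68 and 9.05 at 30 mg/kg, 8.84, 9.11 and 8.87 at 100 mg/kg, with 10.40, 9.52 and 9.73 at 200 mg/kg. Its 30 mg/kg rats were already above vehicle, and the 100 mg/kg rats did not separate from them. The slope was 0.76 (0.49 to 1.03, adjusted p = 0.016) and lost the call without 200 mg/kg rat 1 (adjusted p = 0.077). Me1, the cytosolic malic enzyme that generates NADPH, had 7.14, 7.30 and 7.29 with vehicle, 7.13, 7.24 and 7.34 at 30 mg/kg, 7.56, 7.82 and 7.61 at 100 mg/kg, with 8.61, 8.04 and 8.06 at 200 mg/kg. The 30 mg/kg rats overlapped vehicle and the upper 2 doses were above them, with a slope of 0.52 (0.38 to 0.67, adjusted p = 0.0023). A second Me1 probe set was called too (slope 0.59, adjusted p = 0.027), a call that was lost without vehicle rats 1 or 3 or 200 mg/kg rats 1 or 2 (highest 0.089). Gsr, which regenerates reduced glutathione, and Tkt, transketolase of the pentose phosphate pathway, had slopes of 0.46 and 0.49 (adjusted p = 0.016 and 0.025). Both calls were lost without vehicle rats 2 or 3 or 200 mg/kg rat 1, and that of Tkt also without vehicle rat 1 or 200 mg/kg rat 3 (highest adjusted p 0.071 and 0.060). Of the 24 Nrf2 targets, 12 were upward and 1 downward at an unadjusted p of at most 0.05, beside 6.79% and 5.73% of all genes. In the list 23 slopes were positive, with a median fitted change of 0.34 log2 units. Without 200 mg/kg rat 1 the list had 3 rises, 19 positive slopes and a median of 0.22. The NADPH rises were Me1 and Tkt, of which 1 passed without any 1 vehicle rat or 200 mg/kg rats 1 or 3.

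Of 17 tested aldehyde dehydrogenases 2 rose and 0 fell, beside 0.367% and 0.257% of all genes. Aldh1a1, which oxidises retinal and other aldehydes, had log2 intensities of 9.73, 9.94 and 9.51 with vehicle, 10.43, 9.79 and 10.62 at 30 mg/kg, 10.93, 10.78 and 10.66 at 100 mg/kg, with 11.19, 11.27 and 10.99 at 200 mg/kg, which gave a slope of 0.66 (0.46 to 0.87, adjusted p = 0.0057). Aldh1l1, a folate enzyme that oxidises 10-formyltetrahydrofolate, rose by 0.45 (0.32 to 0.58, adjusted p = 0.0032). The other 15 of 17 tested members did not pass, and the median fitted change of the list was -0.02 log2 units between 0 and 200 mg/kg. Aldh3a1, a known AhR target, was dim and had group means of 3.70, 3.56, 4.30 and 3.23 at 0, 30, 100 and 200 mg/kg (adjusted p = 0.90).

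**Figure D2:**
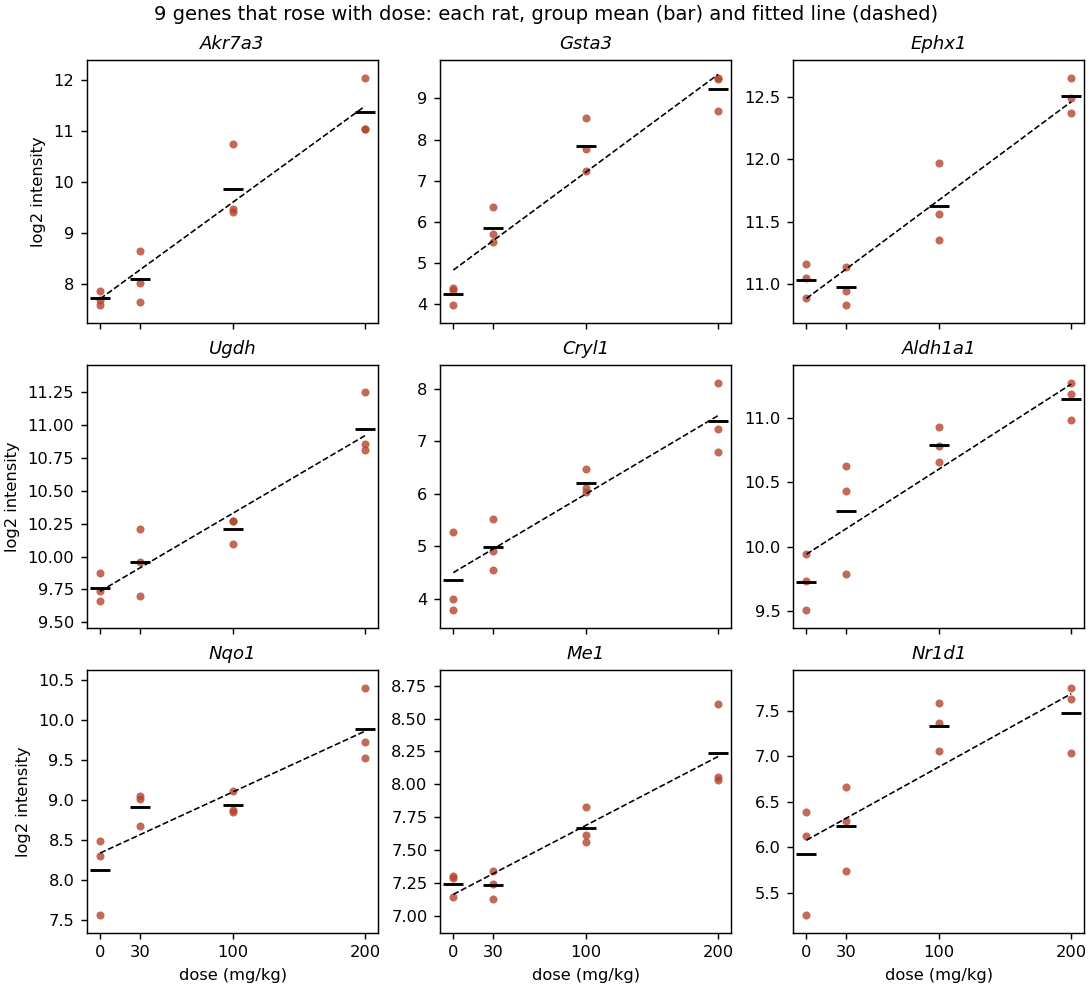
Log2 intensity (y axes, scaled separately per panel) against dose in mg/kg (x axes) for 9 genes that rose. Points are single rats, short bars are group means of 3 rats and the dashed line is the fitted slope; Ephx1 and Me1 change little at 30 mg/kg, Gsta3 and Aldh1a1 are above their dashed line at 100 mg/kg, and Nr1d1 is level between 100 and 200 mg/kg.

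Of the AhR battery, 3 of 12 tested genes rose and 0 fell, beside 0.367% and 0.257% of all genes. The 3 were Gsta3, Aldh1a1 and Nqo1, each also in a list above. At an unadjusted p of at most 0.05, 6 were upward and 0 downward, beside 6.79% and 5.73% of all genes. Across the 12 genes 6 slopes were positive and 6 negative. The median fitted change was 0.14 log2 units (0.40 without 200 mg/kg rat 3). Cyp1a2, the constitutive hepatic member of the Cyp1a family, did not pass the slope test. It had log2 intensities of 10.92, 10.77 and 11.62 in vehicle rats, 12.23, 12.37 and 12.22 at 30 mg/kg, 12.62, 12.61 and 12.59 at 100 mg/kg, with 12.49, 12.34 and 12.66 at 200 mg/kg. Every dosed rat was above every vehicle rat, and 84.0% of the change at 200 mg/kg was present at 30 mg/kg. Its slope was 0.55 (0.20 to 0.89, unadjusted p = 0.0044, adjusted p = 0.20), and the departure from a line had an unadjusted p of 3.05e-05 and an adjusted p of 0.21. Ahr itself had group means of 4.84, 5.58, 6.34 and 6.14 at 0, 30, 100 and 200 mg/kg (slope 0.59, adjusted p = 0.25). Cyp1a1, the most AhR-responsive of these genes, is outside the slope test because it had empty values: it was empty in all vehicle and 30 mg/kg rats, was 4.58 and 4.07 in 100 mg/kg rats 1 and 2 and empty in rat 3, and was 10.41, 6.50 and 6.37 in the 200 mg/kg rats.

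Among pumps, Abcb1a, P-glycoprotein, rose with 2 of its probe sets. The brighter had log2 intensities of 6.28, 5.87 and 6.28 with vehicle, 6.44, 6.56 and 6.69 at 30 mg/kg, 6.62, 6.56 and 6.71 at 100 mg/kg, with 7.55, 7.05 and 7.18 at 200 mg/kg. All dosed rats were above all vehicle rats, the 30 and 100 mg/kg rats overlapped, and the slope was 0.50 (0.33 to 0.67, adjusted p = 0.013). Both calls were lost without 200 mg/kg rat 1 (adjusted p = 0.071 and 0.076). Abcb6, a porphyrin transporter, rose by 0.32 (adjusted p = 0.047) and lost its call in 11 of the 12 fits without 1 rat, with adjusted p-values up to 0.16. The other 14 of 16 tested ABC pumps did not pass, and of all genes 0.367% rose and 0.257% fell.

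Of 19 tested CAR and PXR targets, 5 rose (Akr7a3, Ephx1, Aldh1a1, Abcb1a and Ugt2b1) and 0 fell, beside 0.367% and 0.257% of all genes. All 5 also stand in one of the lists above. Without 200 mg/kg rat 1 the number of rises was 3. The list of Cyp2, Cyp3 and Cyp4 genes, families that hold the classical P450 targets of those receptors, had 52 members. Of these, 38 had a probe set of their own and 35 were tested, and 0 rose and 0 fell. Members that were not tested give no result. At an unadjusted p of at most 0.05, 1 slope was upward and 6 were downward (2 and 2 without 200 mg/kg rat 2), beside 6.79% and 5.73% of all genes. The upward one was Cyp2c12, a female-predominant P450, at 9.47, 10.07 and 7.94 in vehicle rats and 11.21, 11.63 and 10.07 at 200 mg/kg (slope 0.79, adjusted p = 0.23). With 9 lists of drug metabolism joined, 20 of 130 tested genes rose (15.4%) and 0 fell, beside 20 of 10777 other genes that rose (0.186%) and 28 that fell (0.26%). The join leaves out the lists of Cyp2, Cyp3 and Cyp4 genes, of sulfotransferases and methyltransferases, and of uptake transporters, each with 0 rises. Genes found only in those lists count among the other genes. Lists and join were chosen with earlier results of these data known, so these shares are a description and carry no test.

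**Figure D3:**
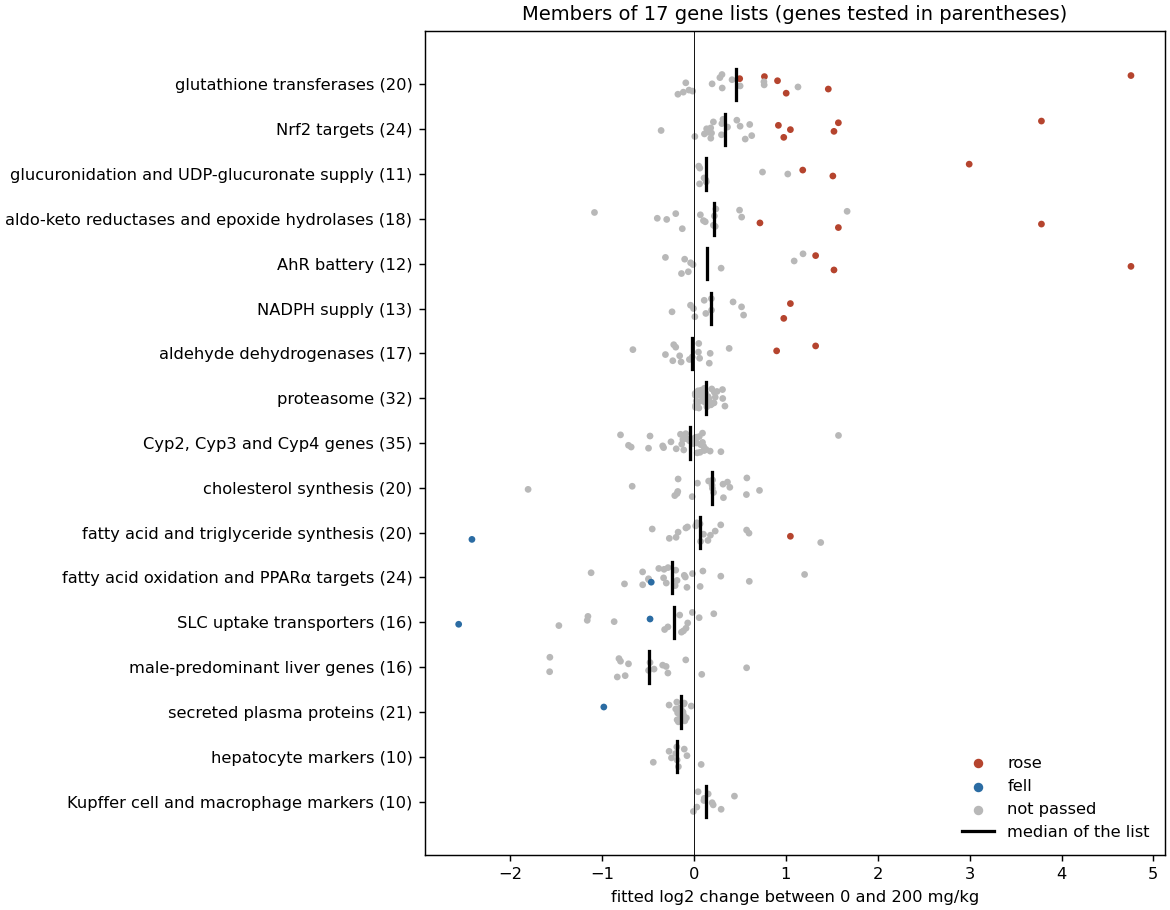
Fitted log2 change between 0 and 200 mg/kg (x axis) of each tested member of 17 gene lists (rows, with the number of genes tested). Red points rose, blue points fell and grey points did not pass; the black bar is the median of the list, 0.46 for glutathione transferases, 0.13 for the proteasome and -0.49 for male-predominant genes.

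Rising genes outside those 9 lists had mixed roles. The steepest was Mlc1, a membrane protein best known from astrocytes, which had 6.92, 6.53 and 5.02 at 200 mg/kg, against 3.65, 4.20 and 4.51 with vehicle (slope 1.00, adjusted p = 0.028), and lost its call without vehicle rats 1 or 2 or 200 mg/kg rats 1 or 2 (highest 0.13). Acsm5, a medium-chain acyl-CoA synthetase, rose by 0.84 (adjusted p = 0.013; up to 0.071 without 200 mg/kg rats 1 or 3) and Slc17a3, an organic anion transporter, by 0.71 (adjusted p = 0.022; up to 0.066 without vehicle rats 2 or 3 or 200 mg/kg rats 1 or 2). Kxd1, a subunit of a complex that positions lysosomes, had the fifth smallest p (slope 0.44, 0.33 to 0.54, adjusted p = 0.0012), followed by Dap, a regulator of autophagy (0.34, adjusted p = 0.0023), and Selenbp1, a methanethiol oxidase (0.33, adjusted p = 0.0023). Entpd5, a UDPase of the endoplasmic reticulum, rose by 0.56 (adjusted p = 0.0051) and Reep6, a shaper of that membrane, by 0.51 (adjusted p = 0.0062). All 5 calls passed in all 12 fits without 1 rat, although that of a second Reep6 probe set was lost in 8 (highest adjusted p 0.13). Nr1d1, the clock repressor REV-ERBα, had log2 intensities of 6.13, 6.39 and 5.26 in vehicle rats, 5.74, 6.67 and 6.29 at 30 mg/kg, 7.58, 7.06 and 7.37 at 100 mg/kg, with 7.04, 7.75 and 7.63 at 200 mg/kg. The upper 2 doses were above all lower rats and overlapped each other (slope 0.80, 0.47 to 1.14, adjusted p = 0.041), and the call held only without 30 mg/kg rats 1 or 2, 100 mg/kg rat 1 or 200 mg/kg rat 1 (highest adjusted p 0.12). Of 16 tested clock genes 1 rose and 0 fell, beside 0.367% and 0.257% of all genes. Cry1 and Npas2 had downward slopes of -0.63 and -0.62 that did not pass (adjusted p = 0.16 each). The sources used here do not give the time of day at which livers were taken.

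Psmb10, a subunit of the immunoproteasome, was the 1 called member of 25 tested interferon and antigen processing genes. Of all genes 0.367% rose and 0.257% fell. Psmb10 had log2 intensities of 6.48, 6.20 and 6.21 with vehicle, 6.16, 6.47 and 6.20 at 30 mg/kg, 6.40, 6.52 and 6.38 at 100 mg/kg, with 7.10, 7.26 and 6.85 at 200 mg/kg. The 200 mg/kg rats stood above all others (slope 0.40, 0.24 to 0.55, adjusted p = 0.029), and the call was lost without vehicle rats 2 or 3 or any 200 mg/kg rat (highest adjusted p 0.13). None of 32 tested genes of the standard proteasome passed the adjusted threshold, but all 32 slopes were positive, under quantile and 75th percentile scaling too. An unadjusted p of at most 0.05 was held by 8, beside 6.79% of all genes upward at that p. The median fitted change was 0.13 log2 units. These moved with single rats: 4 had such a p without vehicle rats 1 or 3 or 200 mg/kg rat 1, with 27 slopes positive without vehicle rat 1 or 200 mg/kg rat 1, and 12 had it without 200 mg/kg rat 3, with a median of 0.22. The member with the smallest p, Psmc3, an ATPase of the cap, had group means of 9.08, 9.18, 9.33 and 9.40 at 0, 30, 100 and 200 mg/kg (slope 0.16, 0.06 to 0.25, adjusted p = 0.17).

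Transporters of the cell surface led the falling genes. Slc34a2, a sodium-phosphate cotransporter, had log2 intensities of 9.50, 8.77 and 7.93 in vehicle rats, 8.10, 8.60 and 7.82 at 30 mg/kg, 6.94, 6.54 and 7.23 at 100 mg/kg, with 6.11, 6.36 and 6.06 at 200 mg/kg. The 100 mg/kg and 200 mg/kg rats were each below all rats of lower dose, and the slope was -1.28 (-1.61 to -0.95, adjusted p = 0.0021). Slc16a1, a carrier of lactate and other monocarboxylates, had 10.50, 10.40 and 10.34 with vehicle, 10.03, 10.28 and 9.88 at 30 mg/kg, 9.66, 9.77 and 9.97 at 100 mg/kg, with 9.62, 9.20 and 9.39 at 200 mg/kg. It was below vehicle in every dosed rat and fell by 0.47 log2 units per 100 mg/kg (adjusted p = 0.0023). Both calls passed in all 12 fits without 1 rat. Slc22a7, an organic anion transporter, fell by 0.24 (adjusted p = 0.041), a call that held in 1 of those 12 fits. Of 16 tested uptake transporters 2 fell and 0 rose, beside 0.257% and 0.367% of all genes. At an unadjusted p of at most 0.05, 8 slopes were downward (5 without 200 mg/kg rat 1) and 1 was upward, beside 5.73% and 6.79% of all genes. Slc22a8, another organic anion transporter, was the nearest to passing, at 10.26, 10.01 and 10.06 with vehicle and 8.98, 7.85 and 9.39 at 200 mg/kg (slope -0.58, adjusted p = 0.10).

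Several genes of lipid and fuel metabolism fell. With 5 lists of lipid and energy metabolism joined, 3 of 129 tested genes fell (2.33%) and 1 rose (0.775%). Among the 10778 other genes 0.232% fell and 0.362% rose. The median fitted change of the joined lists was -0.005 log2 units, and these shares carry no test. Scd, the desaturase that makes oleate from stearate, had log2 intensities of 9.04, 9.10 and 9.75 with vehicle, 8.99, 8.33 and 8.03 at 30 mg/kg, 7.67, 7.93 and 7.21 at 100 mg/kg, with 5.28, 7.22 and 7.69 at 200 mg/kg. All dosed rats were below all vehicle rats, with a 200 mg/kg group that spread over more than the other doses. The slope was -1.21 (-1.67 to -0.74, adjusted p = 0.025) and lost its call without any 1 vehicle rat or 200 mg/kg rat 1 (highest adjusted p 0.077; slope -0.91 without that rat). Ldha, lactate dehydrogenase, had 12.37, 12.15 and 12.24 with vehicle, 11.95, 12.17 and 12.11 at 30 mg/kg, 12.01, 12.00 and 12.05 at 100 mg/kg, with 11.68, 11.73 and 11.51 at 200 mg/kg (slope -0.28, -0.37 to -0.19, adjusted p = 0.0070). Its 200 mg/kg rats were below all others. Of 23 tested genes of gluconeogenesis, glycolysis and glycogen, Ldha alone fell and 0 rose, beside 0.257% and 0.367% of all genes. At an unadjusted p of at most 0.05, 2 of them were downward and 2 upward, beside 5.73% and 6.79% of all genes. Aldoa, a glycolytic aldolase outside that list, rose by 0.30 (limma, adjusted p = 0.026). The Aldoa call was lost without vehicle rat 1 or any 200 mg/kg rat (highest adjusted p 0.097). Hadha, a subunit of the mitochondrial enzyme that shortens long-chain fatty acids, fell by 0.23 (adjusted p = 0.038), at 10.74 to 10.83 with vehicle and 10.12 to 10.54 at 200 mg/kg, and the call held only without 30 mg/kg rat 1, 100 mg/kg rats 1 or 3 or 200 mg/kg rat 2 (highest 0.13). Of 24 tested genes of fatty acid oxidation and PPARα, Hadha alone passed, while 14 were downward (8 without 200 mg/kg rat 1, 9 without 200 mg/kg rat 3) and 2 upward at an unadjusted p of at most 0.05. The shares of all genes at that p were 5.73% downward and 6.79% upward. The list of 24 does not hold Decr1, an enzyme of unsaturated fatty acid oxidation, or Mpc2, a subunit of the mitochondrial pyruvate carrier, which fell by 0.17 and 0.19 (adjusted p = 0.046 and 0.038), with the call of Decr1 lost in all 12 fits without 1 rat and that of Mpc2 in 9. For the 24 genes the median fitted change was -0.24 log2 units (-0.18 after quantile normalization). Among 20 genes of fatty acid and triglyceride synthesis Scd fell and Me1 rose, and of 20 genes of cholesterol synthesis 0 passed in either direction.

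**Figure D4:**
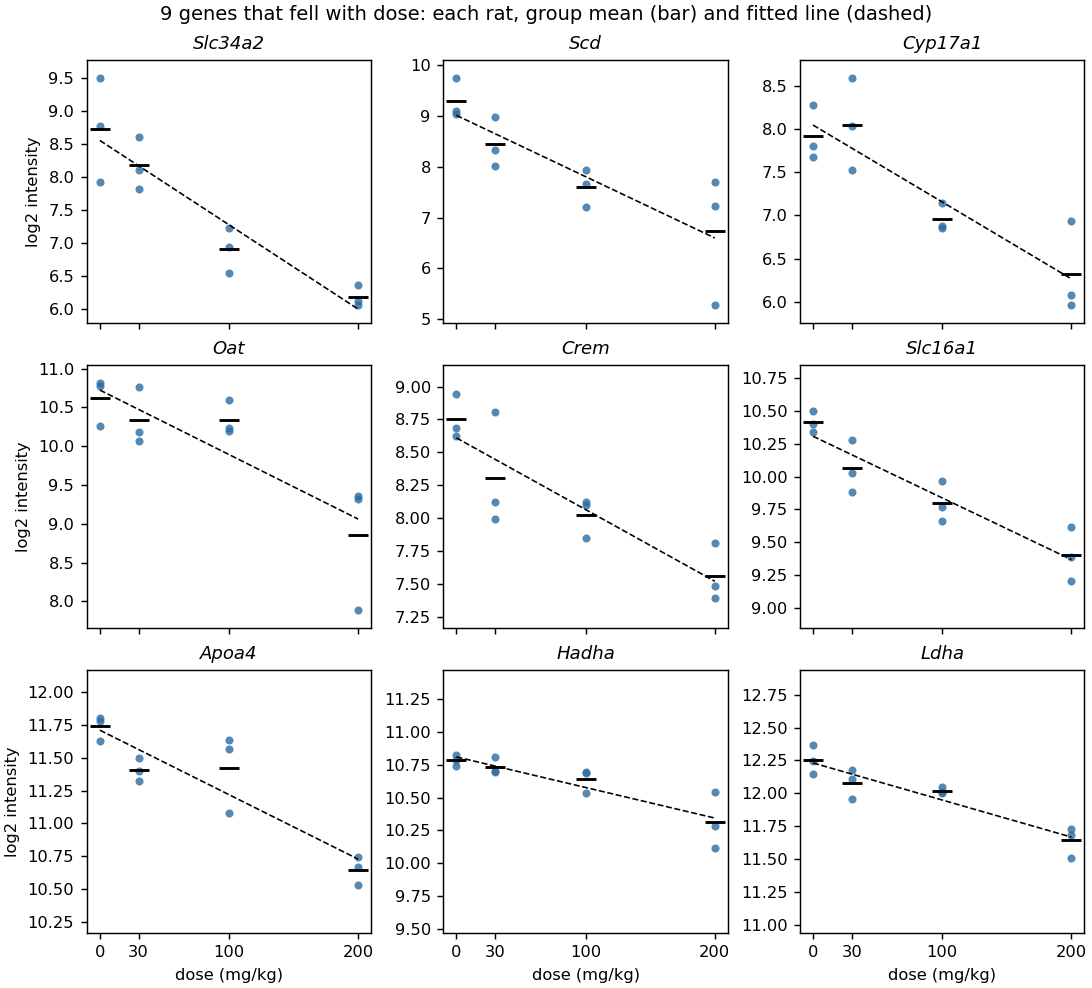
Log2 intensity (y axes, scaled separately per panel) against dose in mg/kg (x axes) for 9 genes that fell. Points are single rats, short bars are group means of 3 rats and the dashed line is the fitted slope; Slc34a2 and Slc16a1 fall at each dose, Oat changes mainly at 200 mg/kg, and Scd has 1 rat at 5.28 in the 200 mg/kg group.

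Further falls came from single genes of several pathways, among them 1 of 19 tested genes of steroid metabolism, Cyp17a1, and 1 of 15 of the urea cycle and glutamine, Oat. Neither list had a rise, and of all genes 0.257% fell and 0.367% rose. Cyp17a1, which makes androgen precursors in the rat, had log2 intensities of 7.80, 8.27 and 7.67 with vehicle, 8.59, 7.53 and 8.03 at 30 mg/kg, 6.88, 6.85 and 7.14 at 100 mg/kg, with 5.96, 6.93 and 6.07 at 200 mg/kg. It did not separate at 30 mg/kg and was below vehicle in all rats at the upper 2 doses (slope -0.89, -1.18 to -0.60, adjusted p = 0.0082; 0.058 without 200 mg/kg rat 1). Oat, ornithine aminotransferase, had 10.81, 10.26 and 10.77 with vehicle, 10.76, 10.07 and 10.18 at 30 mg/kg, 10.59, 10.20 and 10.23 at 100 mg/kg, with 7.89, 9.36 and 9.31 at 200 mg/kg. Its 200 mg/kg rats stood below all others, and rat 1 of that group was the lowest by over 1 log2 unit. The Oat slope of -0.83 (-1.18 to -0.48, adjusted p = 0.041) passed only without 30 mg/kg rat 2 or 100 mg/kg rat 1 and was -0.56 without 200 mg/kg rat 1 (highest adjusted p 0.10). Gulo, the last enzyme of ascorbate synthesis in the rat, fell with both of its probe sets by 0.30 and 0.37 (adjusted p = 0.018 and 0.025). The first of these missed the threshold without vehicle rat 3 or 200 mg/kg rat 1 (highest 0.061), and the second without any 1 vehicle rat or 200 mg/kg rats 1 or 2 (highest 0.11). Igf1, the growth factor secreted by the liver under growth hormone, fell by 0.26 (adjusted p = 0.047), with 2 further probe sets at slopes of -0.21 and -0.17 that did not pass, and the call held only without 30 mg/kg rats 1 or 3.

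Of 16 tested male-predominant genes 0 passed by the brightest probe set. At an unadjusted p of at most 0.05, 9 were downward and 0 upward, beside 5.73% and 6.79% of all genes. The median fitted change was -0.49 log2 units. Without 200 mg/kg rat 2 these were 5 downward and a median of -0.30, and without 200 mg/kg rat 3 they were 11 and -0.66. Of 13 tested female-predominant genes 0 rose and 1, Cyp17a1, fell, beside 0.367% and 0.257% of all genes. At an unadjusted p of at most 0.05, 4 were upward and 3 downward, beside 6.79% and 5.73% of all genes. Their median fitted change was 0.09 log2 units, which was -0.06 without 200 mg/kg rat 2 and 0.31 without 30 mg/kg rat 2. Car3, carbonic anhydrase 3, fell by its dimmer probe set, at 11.89, 10.78 and 11.15 with vehicle, 11.31, 9.64 and 10.38 at 30 mg/kg, 10.37, 8.85 and 9.95 at 100 mg/kg, with 8.22, 8.64 and 9.85 at 200 mg/kg. The groups from 30 mg/kg upward overlapped, and the slope was -1.11 (-1.59 to -0.63, adjusted p = 0.045), passing only without rat 2 of the 30 or 100 mg/kg groups or 200 mg/kg rat 3 (highest 0.17). The brighter Car3 probe set had a slope of -0.78 (adjusted p = 0.074). Crem, a modulator of cAMP-driven transcription, had 8.68, 8.63 and 8.94 with vehicle, 7.99, 8.81 and 8.12 at 30 mg/kg, 7.85, 8.10 and 8.12 at 100 mg/kg, with 7.48, 7.81 and 7.39 at 200 mg/kg. It fell by 0.55 log2 units per 100 mg/kg (adjusted p = 0.014), lost the call without 200 mg/kg rats 1 or 3 (highest 0.062), and had 4 further probe sets with downward slopes between -0.48 and -0.25 that did not pass.

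A few genes for plasma proteins fell. Apoa4, an apolipoprotein, had log2 intensities of 11.78, 11.63 and 11.80 with vehicle, 11.50, 11.32 and 11.40 at 30 mg/kg, 11.56, 11.08 and 11.63 at 100 mg/kg, with 10.67, 10.74 and 10.53 at 200 mg/kg (slope -0.49, -0.64 to -0.34, adjusted p = 0.0057). One 100 mg/kg rat reached the lowest vehicle rat at 11.63 while no 30 mg/kg rat did, and the 200 mg/kg rats were below all others. Afm, the vitamin E carrier afamin, fell by 0.33 (adjusted p = 0.0036) and C8g, a chain of complement component 8, by 0.19 (adjusted p = 0.022). The Apoa4 and Afm calls passed in all 12 fits without 1 rat, and that of C8g was lost without rats 1 or 3 of the vehicle or 200 mg/kg groups (highest 0.080). Of 21 tested secreted plasma proteins, a list that does not hold Afm or C8g, Apoa4 was the 1 that fell, beside 0.257% of all genes. All 21 slopes were negative with a median fitted change of -0.14 log2 units, but 18 were negative and 3 positive after quantile normalization, with a median of -0.05, and the median was -0.10 without 200 mg/kg rat 1. The other falling genes included Abhd1, Ttyh2, S1pr1, Rsph9 and Nectin3, all with slopes between -0.55 and -0.24 and all with calls that were lost in 3 to 5 of the 12 fits.

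Tissue markers were examined because whole liver RNA cannot tell fewer cells of a type from less RNA per cell. All 10 hepatocyte markers were measured in every rat, 0 passed, 9 slopes were negative (8 after quantile normalization) and 4 had an unadjusted p of at most 0.05 (1 without 200 mg/kg rats 1 or 2), with a median fitted change of -0.19 log2 units, or -0.07 after that normalization. Their summed linear intensity ran from 60210 to 64756 in vehicle rats, 57520 to 64958 at 30 mg/kg, 61383 to 67416 at 100 mg/kg, with 51889 to 61230 at 200 mg/kg. For the 10 of 13 Kupffer cell and macrophage markers with 12 values the sums were 2740 to 3593, 2778 to 3445, 2399 to 3182, and 2889 to 4275 in the same order, 9 slopes were positive (3 without 200 mg/kg rat 3) and 0 passed. Markers of endothelial cells (10 tested), exocrine pancreas (5), red cell precursors (5), neutrophils (3), lymphocytes (8), bile duct cells (3) and stellate cells (11) had 0 calls, and their part in the slopes above was not tested.

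The called dose curves were next described by the share of the vehicle to 200 mg/kg difference in log2 intensity that was present at 30 and at 100 mg/kg. A straight line on dose gives 15% and 50%. The median over the 51 rising probe sets was 15.8% and 46.6%, and over the 37 falling ones 21.5% and 50.6%. At 100 mg/kg the share lay between 25% and 75% for 40 rises and 34 falls, below 25% for 6 rises and 2 falls, and above 75% for 5 rises and 1 fall. Group means ran in strict order of dose for 37 rises and 24 falls. All 88 called probe sets separated the 200 mg/kg rats from the vehicle rats, whereas the 30 mg/kg rats separated from vehicle for 7 rises and 9 falls, the 100 mg/kg rats from the 30 mg/kg rats for 27 and 17, and the 200 mg/kg rats from the 100 mg/kg rats for 36 and 27. Because a steady change is what the slope test selects, these shapes are descriptions of the members and carry no test.

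**Figure D5:**
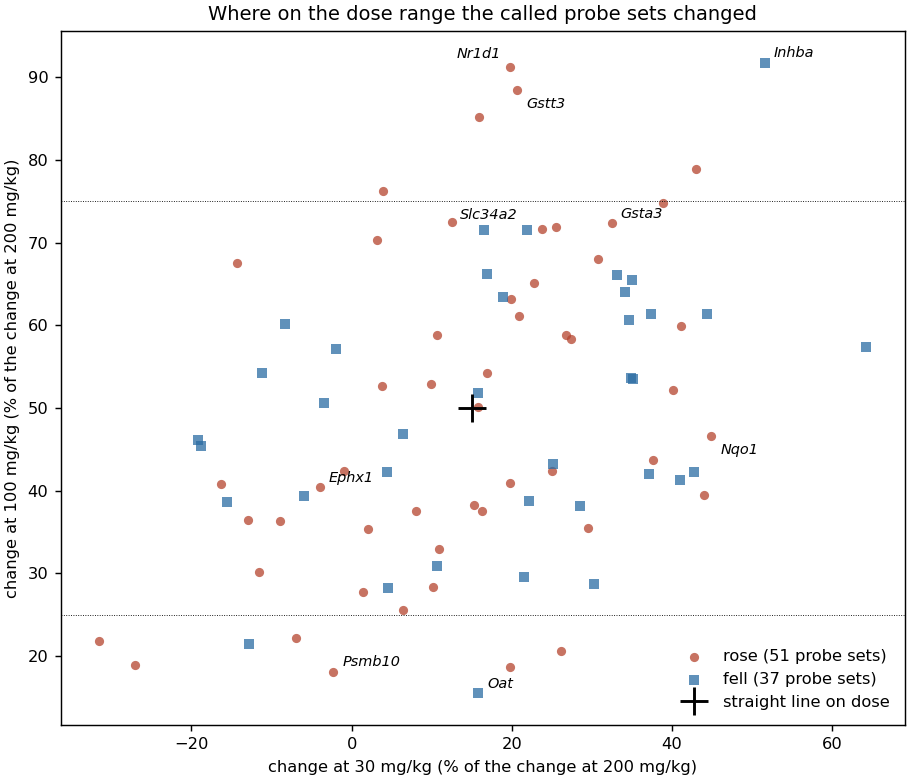
Share of the vehicle to 200 mg/kg difference present at 30 mg/kg (x axis, %) and at 100 mg/kg (y axis, %) for the 51 probe sets that rose and the 37 that fell. The cross marks a straight line on dose (15% and 50%) and the dotted lines mark 25% and 75%; Oat and Psmb10 lie low, and Nr1d1, Gstt3 and Inhba lie high.

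The late extreme was formed by Oat, Psmb10 and Pabpc4, a poly(A)-binding protein, with 15.5%, 18.1% and 18.8% of the change at 100 mg/kg. The early extreme was formed by Inhba, the activin βA chain, Nr1d1 and Gstt3, with 91.7%, 91.2% and 88.5%. Inhba had log2 intensities of 7.37, 7.26 and 6.94 with vehicle, 6.70, 6.49 and 6.16 at 30 mg/kg, 6.03, 5.55 and 6.04 at 100 mg/kg, with 5.76, 6.06 and 5.45 at 200 mg/kg, and its other probe set had a slope of 0.02 (adjusted p = 0.98). Every dosed rat was below every vehicle rat and the upper 2 doses overlapped (slope -0.65, adjusted p = 0.045; the call held only without 30 mg/kg rat 3, 100 mg/kg rat 2 or 200 mg/kg rat 2). The 20 rising genes of the joined drug metabolism lists had medians of 20.8% at 30 mg/kg and 60.0% at 100 mg/kg, the other 20 rising genes 13.1% and 35.9%, and the 28 falling genes 16.7% and 48.4%. The difference between the first 2 groups of genes was not tested.

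Departure from a straight line was tested with the 2 remaining dose contrasts. No probe set passed at an adjusted p of at most 0.05 (limma), and 990 of 20497 (4.83%) had an unadjusted p of at most 0.05. Among the calls these were 1 rise, Gsta3, and 3 falls, Apoa4, Inhba and Csrp1, a LIM domain protein. Csrp1 had 8.52, 8.42 and 8.49 with vehicle, 7.91, 7.90 and 7.97 at 30 mg/kg, 7.89 to 8.07 at 100 mg/kg, with 7.68, 7.64 and 7.54 at 200 mg/kg. It dropped at the lowest dose, was level to 100 mg/kg and dropped again (unadjusted p for departure 0.00072, slope -0.34, adjusted p = 0.041, with the call held only when a 30 mg/kg rat was left out). Beside Cyp1a2, the named genes with the smallest departure p were Dmxl2, a regulator of the vacuolar proton pump, and Acsl5, a long-chain acyl-CoA synthetase. Dmxl2 had log2 intensities of 7.13 to 7.35 with vehicle, 6.01 to 6.22 at 30 mg/kg, 6.78 to 7.14 at 100 mg/kg and 5.92 to 6.0 at 200 mg/kg (limma, adjusted p for departure = 0.068). Acsl5 had 10.13 to 10.40 at 30 mg/kg, against 9.63 to 9.68 with vehicle, and all rats at the upper 2 doses lay below the 30 mg/kg rats (limma, adjusted p for departure = 0.21).

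Among alternative dose scales, dose in mg/kg left the smallest residual for 27 of 51 rises and 20 of 37 falls. The rank of dose did so for 8 and 11, a log scale for 10 and 3, a step at the top dose for 6 and 3, and a step at any dose for 0 and 0. The calls were selected by their slope on dose in mg/kg, which favours that scale, so these counts are descriptions and carry no test. Akr7a3, Ephx1, Ugdh, Cryl1 and Cyp17a1 were closest to the plain dose line, Gsta3, Aldh1a1 and Slc34a2 to the log scale, and Apoa4, Oat and Psmb10 to a step at the top dose.

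Within the 200 mg/kg group, rat 1 was the highest of the 3 for 40 of the 51 rising probe sets and the lowest for 20 of the 37 falling ones. Rats 2 and 3 were the highest for 5 and 6 rises and the lowest for 4 and 13 falls. In the 100 mg/kg group rat 2 was the farthest for 34 rises and 20 falls. Leaving out 200 mg/kg rat 1 reduced the calls to 22 rises and 11 falls, and leaving out 1 vehicle rat to between 26 and 32 rises and 11 and 15 falls. Over the 12 fits that each left out 1 rat, 16 rises and 7 falls passed in every fit, and no slope of a call changed by over 1.5 times.

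Among the named genes with a call, 21 had more than 1 tested probe set. In 5 of them (Me1, Abcb1a, Lgals8, Reep6 and Gulo) 2 probe sets passed in the same direction. Of the 28 further probe sets that did not pass, 23 had the sign of the call. Hadha (0.04), Inhba (0.02) and S1pr1 (0.01) each had a probe set with a slope near 0 beside the one that fell. The Akr1c14 call rests on a probe set of a kind that can match several related transcripts, and its 2 other probe sets had slopes of 0.15 and 0.11.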

How the data were processed

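RNA from 12 rat livers was hybridised to Affymetrix RAE230 2.0 arrays. Per the labels and the study's methods, the authors processed the arrays in Rosetta Resolver and deposited log10 intensities, 1 per probe set and rat. The sources used here do not give the background correction, the scaling or the reason for empty values. The deposited log10 values were multiplied by 3.32 to give log2 values, with no further scaling. Medians per array were 5.21 to 5.26, 12.0% to 12.5% of probe sets were empty, and the number of arrays limits the precision.

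Each probe set with 12 values was fitted on dose in mg/kg (lmFit and eBayes with a variance trend, limma 3.58.1 in R 4.3.3, 10 residual degrees of freedom), with Benjamini-Hochberg adjustment over 20497 probe sets. Intervals are 95%. Departure from the line was a moderated F test in a fit of 4 group means. Probe sets with an empty value, 8679 in all, were left out. A gene was represented by its brightest probe set; 19691 probe sets had 1 symbol, 424 had several and 9061 had none, and 19627 were matched to RefSeq by gene number. Named genes were the 15 rises and 15 falls with the smallest p, up to 3 genes of each list, genes the study names for rat liver, and the extremes of dose shape and departure; other genes were chosen after their values were seen. The members and lists were chosen with earlier results of these data known. On simulated data with the same 20497 probe sets and a straight dose trend, the fit called 58% of 100 true 2-fold changes, 83% of 100 true 4-fold changes and 8 unchanged probe sets. Alternatives covered scaling, filters, the variance model, dose scales, the rat number as a block and leaving out each rat. The authors' table of fold changes and p-values was not used. Figures were drawn with matplotlib 3.10.9.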

Additional observations from a re-analysis of the deposited data

Results flagged for a closer look

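Among the 8679 probe sets left out of the slope test, 6 were empty in all 3 vehicle rats and above the 25th percentile of intensity (3.84 on the log2 scale) in all 3 rats given 200 mg/kg, and 0 had the reverse pattern. Abcc3, a pump for conjugates, was 4.57 in 1 rat at 30 mg/kg, was 4.91, 6.65 and 5.45 at 100 mg/kg, and was 7.77, 8.25 and 7.62 at 200 mg/kg. Cyp1a1 was 10.41, 6.50 and 6.37 at 200 mg/kg, with the other values given above. Ncaph, a condensin subunit, was present in all dosed rats, at 4.91 to 5.35 at 30 mg/kg, 4.70 to 4.74 at 100 mg/kg and 4.64 to 5.62 at 200 mg/kg. Serpinb9b, a serine protease inhibitor, was 6.45, 8.31 and 5.64 at 200 mg/kg and was present in 2 rats at 30 mg/kg and 1 at 100 mg/kg. The other 2 were LOC102548586, at 4.47, 5.53 and 6.52 at 200 mg/kg, and an unnamed probe set. An empty value gives no level, so no fold change or test is given. The outlying-sample test was not run because every group had 3 rats.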

How the results depend on the processing

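Set against 51 rises and 37 falls, the counts were 17 and 7 without the variance trend, 23 and 16 by ordinary regression, 34 and 17 with a floor under low and empty values, and 34 and 24 on a log2 dose scale. A step at any dose gave 3 and 0, a step at the top dose 3 and 2, the dosed rats only 7 and 1, and the fit without the 200 mg/kg group 1 and 0; the last 2 have fewer rats. Adjusted thresholds of 0.01 and 0.1 gave 15 and 8, and 79 and 74. Leaving out 1 rat gave 22 to 52 rises and 11 to 44 falls, with the lowest counts of both without 200 mg/kg rat 1. Departures from a line, 0 in all, were 3 with the floor and 0 to 2 without 1 rat. Quantile normalization gave 58 and 44, and a top dose of 300 mg/kg 42 and 28. All 88 called slopes kept their direction in every fit. The unadjusted counts, 1127 rises and 1113 falls, changed order in some fits, with 1037 and 1110 for a top dose of 300 mg/kg and 870 and 1018 without 200 mg/kg rat 1. The causes of the other differences were not tested. Of the 88 calls, 86 were kept with quantile normalization, 48 with the floor and 22 without the variance trend. Rats with the same number did not deviate together (18 pairs, r of -0.07 to 0.08), so the numbers do not pair them; with the rat number as a replicate block there were 48 rises and 32 falls (1110 and 1113 unadjusted), and 66 calls were kept.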
